A study of Mus musculus with 6 samples.

Results

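Fosb and Egr3 are immediate early genes, 2 of the 5780 genes that the deposited arrays measured by name, and each was read by a single probe set. They were chosen by their measured levels on the mutant and wild-type arrays, so their difference between the groups is given as a description, with no test. The study compared the forearm bones (radius and ulna) of newborn 129sv mice on 6 single-colour arrays, 3 from Tnni2 del175k mutants and 3 from wild-type littermates. Tnni2 encodes the fast skeletal muscle form of troponin I. The labels state neither zygosity nor whether an array held the bones of a single mouse, so the spread between arrays may be partly technical. The question was which genes differ between mutant and wild-type bone.

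Immediate early genes are transcribed within minutes of a stimulus such as a growth factor, calcium entry or mechanical strain, without new protein being made first. Fosb encodes a Fos family protein that pairs with Jun proteins to form the transcription factor AP-1. A shortened splice form, ΔFosB, raises bone formation when overexpressed in transgenic mice. Egr3 encodes a zinc finger factor of the EGR family, and mice without it lack muscle spindles, the stretch sensors of skeletal muscle. A probe set gives 1 value per gene, so splice forms of Fosb were not told apart.

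All values are intensities, the summarised brightness of a probe set on a linear scale, and levels of different genes cannot be set against each other. Array medians were 45.5 to 47.8 in the mutants and 39.6 to 48.4 in the wild-type, the lowest being wild-type replicate 1. Tnni2 read 133.8, 127.4 and 198.2 in the mutants and 101.5, 164.7 and 257.7 in the wild-type, which does not check the genotype, since the mutation removes a codon. Bone and cartilage genes were bright on every array, with Col1a1 between 6552 and 7807 and Col2a1 between 2540 and 4002. Skeletal muscle RNA was present as well (Acta1 1955 to 3614). Epidermal RNA varied widely: the sum over 5 of 9 keratinocyte markers was 70.0, 439.3 and 46.6 in the mutants and 1695, 1192 and 42.1 in the wild-type.

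Fosb had intensities of 18.1, 38.2 and 40.3 on mutant replicates 1, 2 and 3, and of 28.2, 334.4 and 23.3 on wild-type replicates 1, 2 and 3. A single array, wild-type replicate 2, was high. The other wild-type arrays lay inside the range of the mutants, so the groups overlapped. That array read 8.30 times the next highest of the 6. The mean was 32.2 ± 12.3 in the mutants and 128.6 ± 178.2 in the wild-type (SD, n = 3 each), while the median was 38.2 in the mutants and 28.2 in the wild-type. Means and medians thus lay in opposite order.

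The log2 difference of Fosb, mutant minus wild-type, was -0.99 ± 0.85 (SE of the limma fit over all 8997 probe sets), a ratio of 0.503. From the lowest difference upwards it ranked 26 of the 8997. Without wild-type replicate 2 the difference was 0.24 ± 0.36, on the other side of 0. Leaving out any other single array kept it between -1.68 and -0.62. The lower mean of Fosb in the mutants therefore rests on 1 wild-type array.

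Egr3 behaved otherwise. It had intensities of 27.2, 24.4 and 30.7 on mutant replicates 1, 2 and 3, and of 37.1, 31.1 and 32.8 on the wild-type replicates. No mutant value reached a wild-type value, but mutant replicate 3 was under wild-type replicate 2 by less than 1 intensity unit. Such an order was seen in 3.89% of all probe sets. The mean was 27.5 ± 3.16 in the mutants and 33.7 ± 3.07 in the wild-type (SD, n = 3 each).

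The log2 difference of Egr3 was -0.30 ± 0.20 (SE), a ratio of 0.814, and it ranked 1028 from the lowest difference upwards. It lay between -0.38 and -0.21 with any single array left out, and was -0.38 after quantile normalization. Every probe set in the table is at 20 intensity units or more on 3 or more arrays, a filter that the labels do not describe, and the background handling behind the values is not given in the sources used here. All Egr3 values passed that level, and 1 Fosb value did not, that of mutant replicate 1.

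**Figure D1:**
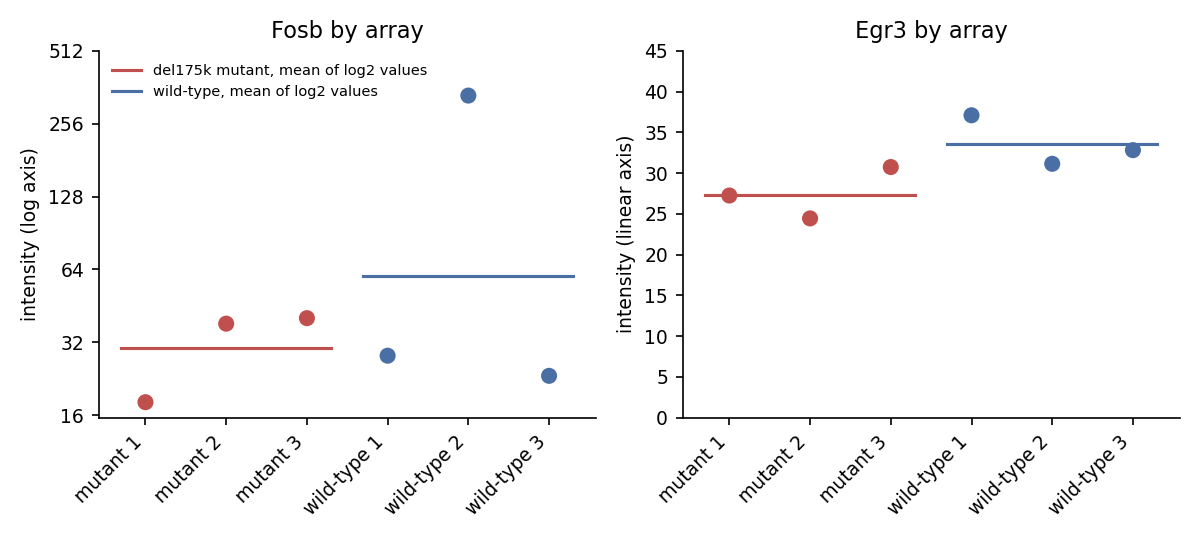
Intensity of Fosb (left, log axis) and Egr3 (right, linear axis from 0) on each array, with points for single arrays and lines for the mean of log2 values in each group. For Fosb, wild-type replicate 2 stands at 334.4 and the other 5 arrays at 18.1 to 40.3; for Egr3 the mutants lie at 24.4 to 30.7 and the wild-type at 31.1 to 37.1.

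Across the 6 arrays the 2 members did not vary together. The Pearson correlation of their log2 intensities was 0.05, and -0.38 for deviations from the group means. These are descriptions over 6 arrays that share 2 groups. Egr3 was highest on wild-type replicate 1, the array with the lowest median, and wild-type replicate 2, where Fosb was high, was the lowest wild-type array for Egr3.

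The bases upstream of Fosb are shown beside those of Nr4a1, the immediate early factor whose profile was most like that of Fosb. Both stretches are the 250 bases before a transcript start in RefSeq, assembly GRCm38.p6, and capitals mark CRE cores (TGACG, the letters that CREB family factors read) and EGR sites (GCGGGGGCG), searched on both strands. Fosb lies at chr7:19310046-19310295 on the minus strand and Nr4a1 at chr15:101266596-101266845 on the plus strand.
Fosb: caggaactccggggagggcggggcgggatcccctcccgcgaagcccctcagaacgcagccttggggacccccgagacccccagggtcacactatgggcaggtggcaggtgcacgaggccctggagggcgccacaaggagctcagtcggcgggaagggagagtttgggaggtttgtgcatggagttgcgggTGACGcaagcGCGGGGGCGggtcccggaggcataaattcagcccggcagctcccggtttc
Nr4a1: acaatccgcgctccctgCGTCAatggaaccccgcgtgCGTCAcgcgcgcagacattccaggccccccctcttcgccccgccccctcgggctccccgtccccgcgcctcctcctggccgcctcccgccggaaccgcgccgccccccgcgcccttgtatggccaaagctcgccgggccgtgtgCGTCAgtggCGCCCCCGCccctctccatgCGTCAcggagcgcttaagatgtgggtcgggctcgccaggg

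Fosb holds 1 CRE core, at -60 to -56 from the start, and 1 EGR site, at -50 to -42. Nr4a1 holds 4 CRE cores and 1 EGR site, which lies at -60 to -52. An EGR site of these letters is in 2.57% of the 32851 RefSeq stretches of that length and a CRE core in 17.8%. Of 10 members and Fos, Jun, Nr4a and related genes looked up, 9 had an entry, all but Egr3. Among the 9, the EGR site was also in Klf4 and Fosl2, and the CRE core in Atf3, Klf4, Fos and Junb. The full CRE (TGACGTCA), the AP-1 site (TGANTCA), the NBRE (AAAGGTCA) and the CArG box had no match in any of the 9. The CArG box is the site of serum response factor. In that order, these sites are in 1.55%, 6.75%, 1.34% and 1.47% of all 32851 stretches. With shares so low, 9 stretches are too few to show a lack of these sites. Bases further upstream were not searched. The EGR site overlaps a GC box (GGGCGG) in each of the 4 stretches that hold it. It ends in GGGCG, so 1 further G is enough for that overlap. A GC box is in 7 of the 9 stretches, beside 32.7% of all 32851. RefSeq's gene record of Fosb reaches 73 bases into the printed stretch, so another start lies upstream of the one used here. The CRE core and the EGR site of Fosb both lie within those 73 bases, so by that record they fall inside the gene. A match of letters is a description and shows no binding.

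The wider set of immediate early factors was measured in part: 16 of 28 listed genes had a probe set with 1 symbol. In this and the other lists, a gene may be absent because its probe set was too dim to pass the filter described above. A factor high on wild-type replicate 2 alone and dim elsewhere would not have passed it. Why each missing gene was absent was not tested. Over all 8997 probe sets, limma called none at an adjusted p of 0.05 (0%), against 669 at an unadjusted p under 0.05, and without moderated variances the count was 0 too. None of the 16 factors passed, the smallest adjusted p being 0.686, and 0 were under an unadjusted p of 0.05. Means were lower in the mutants in 9 (43.3% of all probe sets) and higher in 7 (56.7%), with a median log2 difference of -0.06, beside 0.04 over all probe sets. Without wild-type replicate 2, 5 were lower and 11 higher, and the median was 0.33 beside 0.08 over all probe sets.

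On wild-type replicate 2 several of these factors were high together. It was the highest of the 6 arrays for 10 of the 16 factors, against 14.9% of all probe sets. It read 5.20 times the next array for Nr4a1, 3.14 for Atf3, 2.28 for Klf4, 1.53 for Csrnp1 and 1.42 for Jund. The lead was smaller for Klf6 (1.28), Myc (1.21), Junb (1.06), Klf2 (1.03) and Fosl2 (1.03). With array medians removed, Junb and Klf2 were higher on wild-type replicate 1. Relative to each gene's own mean over the arrays, with array medians removed, the median of the 16 factors stood at 0.58 (log2) on that array. It lay between -0.12 and -0.10 on the mutant arrays and at -0.07 and -0.27 on the other wild-type arrays. The summed intensity of the 16 was 837.4, 833 and 926.0 on the mutants and 678.4, 1625 and 782.8 on the wild-type replicates. Bright genes weigh most in such a sum, and Nr4a1 alone gave 423.4 of it on wild-type replicate 2.

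Among the probe sets that passed the filter described above, few of any kind stood out there as Fosb did. Those at least 2 times the next highest array, a limit chosen after the values were seen, numbered 13 on wild-type replicate 2, or 0.144%, and the share was 0.0445% to 0.211% on the other 5 arrays. Of the 13, 8 carried 1 gene symbol. Fosb led them at 8.30 times the next array. Nr4a1, which encodes an orphan nuclear receptor induced by many stimuli, followed at 5.20 times. Atf3, a stress-induced factor of the ATF family, stood at 3.14 times, Socs3, a feedback inhibitor of cytokine signalling, at 2.39 times, and Klf4, a Krüppel-like factor, at 2.28 times. The other named ones were Tnfaip6 (4.12 times), a hyaluronan-binding protein of inflammation, Nfatc2 (3.64 times), a calcium-regulated factor, and Stk38l (2.20 times), a kinase. Egr3 was not among them.

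**Figure D2:**
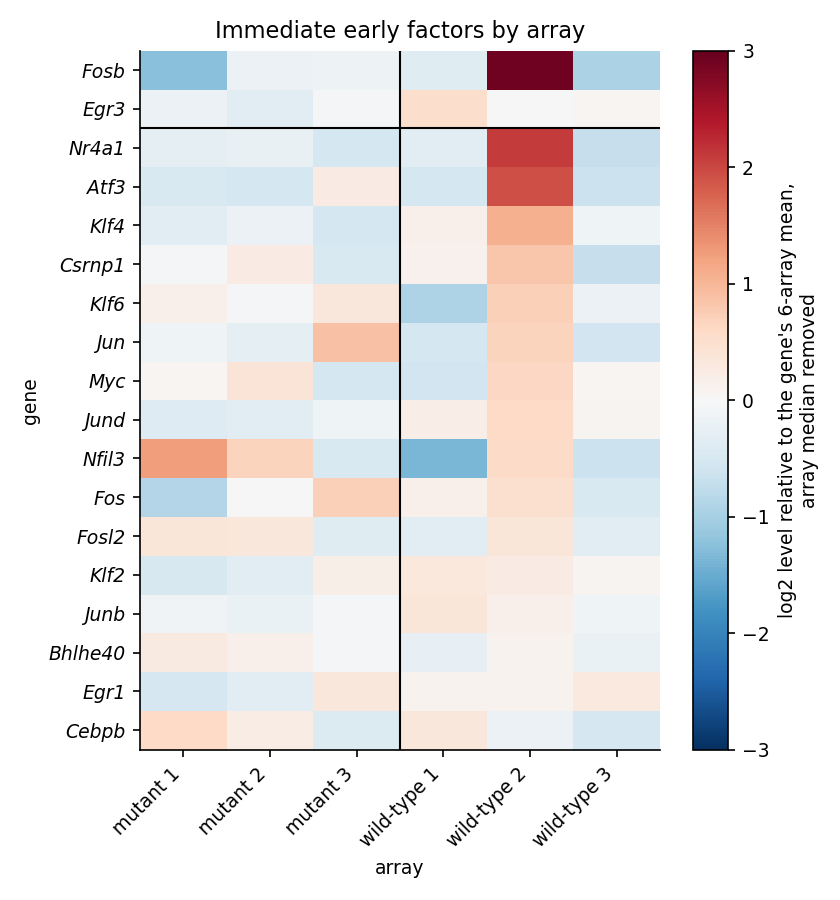
Log2 level of Fosb, Egr3 and 16 other immediate early factors (rows) on each array (columns), relative to the gene's mean over the 6 arrays and with the array median removed; red is above and blue below that mean. The column of wild-type replicate 2 is red for Fosb (2.91), Nr4a1 (2.11) and Atf3 (1.92) and near 0 for Egr3 (-0.02).

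Other markers also moved on wild-type replicate 2. Its summed epidermal markers (1192) were second to wild-type replicate 1 (1695), where Fosb was at 28.2. Its sum over 8 of 10 myeloid markers (275.2) was below the 353.0 to 420.4 of the mutants and the 337.3 and 484.5 of the other wild-type arrays. Its sum over 2 of 10 erythroid markers (112.4) was below the 135.3 to 467.6 of the mutants and the 247.5 and 252.3 of the other wild-type arrays. The part of cell content, handling or RNA quality in the Fosb value of that array was not tested. In whole bone, fewer cells of a type and less RNA per cell cannot be told apart.

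Within the Fos family, the partners and relatives of Fosb went different ways. Fos, the founding member, read 21.1, 38.6 and 65.6 in the mutants and 35.7, 55.7 and 28.8 in the wild-type, with a log2 difference of -0.03 ± 0.40 (SE, limma adjusted p = 0.987). Its groups overlapped, and its highest value was on mutant replicate 3. Fosl2, a Fos relative with roles in bone cells, read 79.8, 78.0 and 50.5 in the mutants and 41.1, 82.3 and 51.5 in the wild-type. Its difference was 0.28 ± 0.30 (limma adjusted p = 0.811).

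The Jun proteins are the partners that Fos proteins need to bind DNA. Jun read 64.1, 57.9 and 136.4 in the mutants and 40.6, 115.7 and 49.1 in the wild-type, so that 1 array of each group was high. Its difference was 0.38 ± 0.43 (limma adjusted p = 0.828). Jund read 98.4, 103.1 and 122.8 in the mutants and 123.8, 200.7 and 141.5 in the wild-type. The groups of Jund did not overlap, the mutants being lower, with the highest on wild-type replicate 2, and the difference was -0.50 ± 0.23 (limma adjusted p = 0.686), or -0.30 without wild-type replicate 2. Junb read 22.4, 20.9 and 24.0 in the mutants and 26.0, 27.4 and 22.8 in the wild-type, with overlapping groups and a difference of -0.18 ± 0.19 (limma adjusted p = 0.819).

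Of the EGR family, Egr1 was the other gene measured, and further members may have been lost to the filter described above. It read 50.8, 56.6 and 94.6 in the mutants and 64.4, 79.5 and 90.9 in the wild-type. The groups overlapped because mutant replicate 3 was the highest of the 6 arrays, and the difference was -0.26 ± 0.27 (limma adjusted p = 0.811). For Egr3 as well, mutant replicate 3 was the highest mutant array. Nab2, a corepressor of EGR proteins named here after its values were seen, read 100.2, 78.9 and 99.0 in the mutants and 92.9, 89.9 and 86.8 in the wild-type (difference 0.04 ± 0.19, limma adjusted p = 0.972).

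Nr4a1 repeated the shape of Fosb. It read 78.2, 81.4 and 69.1 in the mutants and 63.0, 423.4 and 61.3 in the wild-type. Its difference of -0.63 ± 0.62 (limma adjusted p = 0.799) was 0.29 without wild-type replicate 2. Atf3 read 24.8, 23.6 and 42.6 in the mutants and 19.9, 133.8 and 22.8 in the wild-type, and its difference of -0.43 ± 0.62 (limma adjusted p = 0.866) was 0.46 without that array. For both genes the mutant and the remaining wild-type arrays were close together beside the gap to wild-type replicate 2.

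Klf4 read 34.8, 38.5 and 31.7 in the mutants and 40.9, 94.5 and 41.5 in the wild-type. Here the mutants lay below the wild-type without overlap, and the difference was -0.64 ± 0.32 (limma adjusted p = 0.705), or -0.24 without wild-type replicate 2. With all 6 arrays the difference furthest from 0 among the 16 factors was above 0, in Nfil3, a leucine zipper repressor tied to the circadian clock. It read 77.6, 51.5 and 24.6 in the mutants and 10.4, 49.2 and 21.5 in the wild-type (1.05 ± 0.55, limma adjusted p = 0.709). With single arrays left out the difference of Nfil3 ranged from 0.50, lacking wild-type replicate 1, to 1.63, lacking wild-type replicate 2. Without wild-type replicate 1, Nr4a1 was at -1.08 and Klf4 at -0.84. The 6 factors not yet described, Klf2, Klf6, Csrnp1, Myc, Cebpb and Bhlhe40, had overlapping groups and differences from -0.35 (Klf2) to 0.35 (Klf6), and none passed. In all, 2 of the 16 factors (Jund and Klf4) had every mutant array below every wild-type array, beside 3.89% of all probe sets, and 0 had all above, beside 9.18%.

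**Figure D3:**
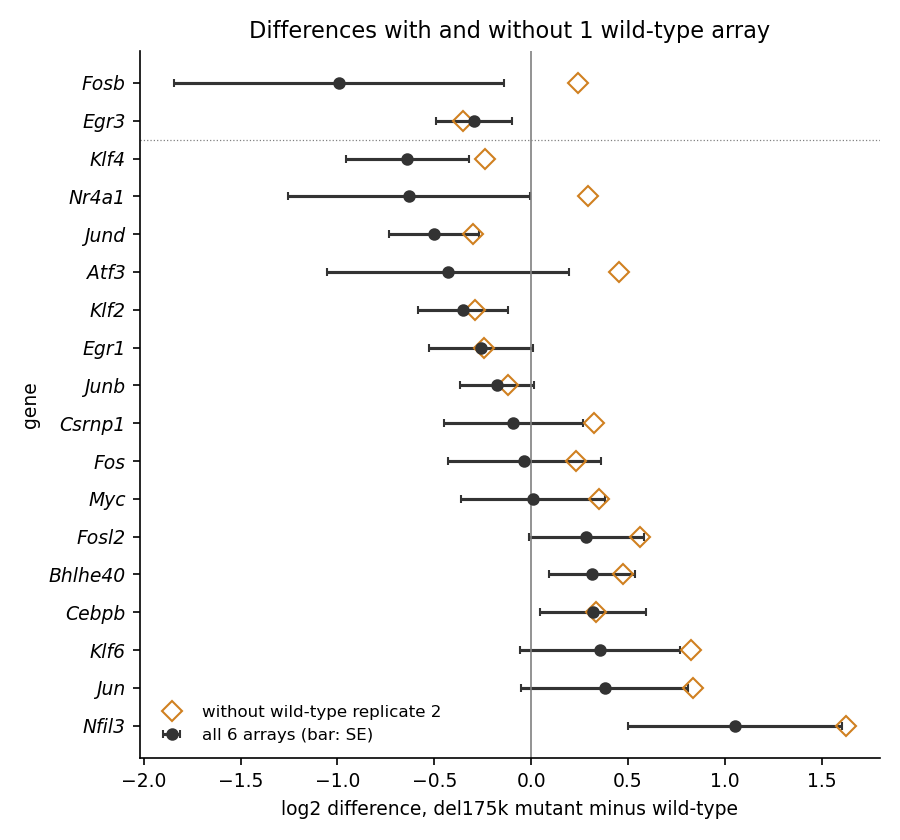
Log2 difference, del175k mutant minus wild-type, of Fosb, Egr3 and 16 other immediate early factors (rows), with all 6 arrays (filled circles, bars are the SE) and without wild-type replicate 2 (open diamonds). Fosb goes to 0.24, against -0.99 with all arrays, and Nr4a1, Atf3, Csrnp1 and Fos also change side, while Egr3 stays below 0.

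Immediate early effectors and feedback genes, the enzymes and secreted proteins induced along with the factors, had 28 of 48 listed genes measured. None passed with limma (smallest adjusted p = 0.591). Means were higher in the mutants in 18 (56.7% of all probe sets) and lower in 10 (43.3%), with a median log2 difference of 0.29 beside 0.04 over all probe sets. At an unadjusted p under 0.05, 3 were higher and 2 lower, beside 5.74% and 1.70% of all probe sets. The median was 0.47 without wild-type replicate 2 and 0.07 without wild-type replicate 1. Wild-type replicate 2 was the highest array for 10 of the 28, beside 14.9% of all probe sets, and relative to each gene's own mean, with array medians removed, their median there was 0.37 (log2). On the other arrays it was 0.05, 0.06 and 0.02 in the mutants and -0.27 and -0.22 in the wild-type.

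The genes of smallest p in that list lay on both sides. Rrad, a small GTPase of muscle, read 13.1, 16.2 and 22.0 in the mutants and 24.2, 35.1 and 30.5 in the wild-type (-0.82 ± 0.25, limma adjusted p = 0.591). Dusp14, a phosphatase that acts on MAP kinases, read 16.7, 23.3 and 20.6 in the mutants and 30.3, 58.1 and 31.2 in the wild-type (-0.92 ± 0.28, adjusted p = 0.591 by limma). Both had groups without overlap and their highest value on wild-type replicate 2. Rrad was under 20, the level of the filter described above, on mutant replicates 1 and 2, and Dusp14 on mutant replicate 1. The wild-type arrays alone, where both were higher, were enough for them to pass that filter. Nfkbia, the inhibitor of NF-κB, read 90.7, 96.0 and 59.8 in the mutants and 23.4, 59.1 and 38.9 in the wild-type (1.09 ± 0.34, limma adjusted p = 0.591). Per1, a clock gene also induced by glucocorticoids, was higher on average in the mutants (1.19 ± 0.50, limma adjusted p = 0.667), with overlapping groups.

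Upstream of these genes, 14 of 21 listed partners and regulators were measured and 0 passed. Means were higher in the mutants in 13 of them, beside 56.7% of all probe sets, and lower in 1, Srf, named here after its values were seen. Of the 14, 13 were lowest on wild-type replicate 1, the array of lowest median, beside 50% of all probe sets. Srf encodes serum response factor, which binds the CArG boxes of many immediate early genes. It read 40.5, 41.4 and 42.8 in the mutants and 38.7, 74.1 and 62.0 in the wild-type (-0.44 ± 0.25, limma adjusted p = 0.716), and wild-type replicate 2 was again the highest array. The genes of smallest p were Atf2 (0.71 ± 0.23, limma adjusted p = 0.605) and Atf7 (0.64 ± 0.26, limma adjusted p = 0.667), which encode CRE-binding factors. Of 11 measured genes of the ERK and related MAP kinase cascades, 7 had higher and 4 lower means, and 0 passed. Braf was at 0.44 ± 0.28 and Map2k2, a kinase that activates ERK, at -0.31 ± 0.21 (limma adjusted p = 0.725 and 0.738). Both Atf2 (16.3 and 19.4) and Braf (12.8 and 19.2) were under 20 on wild-type replicates 1 and 3. Their mutant arrays alone, where they were higher, were enough for them to pass the filter at 20.

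A pair of lists bears on tissues where the members are known to act. Of 13 genes linked to muscle spindles, 6 were measured and 0 passed. Etv1, a spindle transcription factor, was at 0.39 ± 0.21, and Pdlim7, a muscle LIM protein, at -0.24 ± 0.20 (limma adjusted p = 0.708 and 0.769). Etv1 was under 20 on wild-type replicates 1 and 3 (15.2 and 17.7), and its mutant arrays alone were enough for it to pass the filter. Of 15 osteoblast genes and AP-1 targets, 9 were measured and 0 passed. Means were higher in the mutants in 8, beside 56.7% of all probe sets, and lower in 1, with a median log2 difference of 0.14 beside 0.04. Wild-type replicate 1, the array of lowest median, was the lowest array for 6 of the 9, beside 50% of all probe sets. Mmp13, a collagenase whose promoter is regulated by AP-1, read 685.3, 445.1 and 351.0 in the mutants and 136.1, 268.9 and 295.1 in the wild-type (1.10 ± 0.34, limma adjusted p = 0.591). Dlx5 was at 0.36 ± 0.20 (limma adjusted p = 0.709).

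Marker lists of the cell types in and around the bone gave 0 genes past the threshold. The muscle markers were led by Myh7 (0.71 ± 0.33) and Myh1 (-0.66 ± 0.46), with summed levels of 6282 to 8109 in the mutants and 4669 to 9712 in the wild-type. Array weights gave 0.25 for Myh7, and leaving out wild-type replicate 1 gave 0.38. Leaving out wild-type replicate 3 gave -0.047 for Myh1. All 13 measured muscle markers were lowest on wild-type replicate 1. Red cell markers Alas2 (0.73 ± 0.31) and Slc4a1 (-0.15 ± 0.63) were followed by Cd68 (0.34 ± 0.24) and S100a8 (0.45 ± 0.32) for myeloid cells, and Hapln1 (0.44 ± 0.27) and Matn1 (0.31 ± 0.21) for chondrocytes. Among the 8 measured myeloid markers, 6 had higher means in the mutants, beside 56.7% of all probe sets, and 2 lower, with a median of 0.13. Without wild-type replicate 2, 3 of them were higher and 5 lower, with a median of -0.15. Ctsk (1.16 ± 0.34) and Acp5 (0.72 ± 0.23) led the osteoclast list, of which 4 of 9 genes were measured. Its summed level was 1177 to 1690 in the mutants and 594.2 to 1028 in the wild-type. Wild-type replicate 1, the array of lowest median, was the lowest for all 4. It was also the lowest for 10 of 11 chondrocyte and 5 of 6 endothelial markers, beside 50% of all probe sets. Pecam1 (0.27 ± 0.32) and Cdh5 (0.21 ± 0.26) led the endothelial list, Pdgfra (1.17 ± 0.32) and Mkx (0.51 ± 0.22) were the genes of smallest p for tendon and fibroblasts, and Lor (-2.20 ± 0.90) and Krt14 (-1.27 ± 0.86) led that of epidermis. Of the 9 measured tendon and fibroblast markers, however, 3 had higher and 6 lower means in the mutants, with a median of -0.15. Scx, a tendon transcription factor, was at -0.55 and Dpt, a matrix protein of fibroblasts, at -0.52, both named after their values were seen. The epidermal sums of wild-type replicates 1 and 2 exceeded those of all mutant arrays. Egr3 was high on replicate 1 of these and Fosb on replicate 2. Their part in the differences of the members was not tested.

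Genes with profiles most like each member were ranked by the Pearson correlation of log2 intensity over the 6 arrays, among 5622 other named genes. For Fosb the first 6 were Tmem45a (r = 0.98), Uxs1, which makes UDP-xylose for proteoglycans (0.97), Chd3, a chromatin remodeller (0.97), Cacna1g, a T-type calcium channel (0.96), Api5 (0.96) and Socs3 (0.95). Nr4a1 and Atf3 came 7 and 9 in that order. All 6 had their highest value on wild-type replicate 2. Without that array, over 5 arrays, Socs3 had r = 0.12 and Nr4a1 r = 0.10, whereas Tmem45a kept 0.83 and Chd3 0.82. These values describe 6 arrays, and in Fosb they are set largely by 1 of them.

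Fos, singled out after the values were seen, gave the opposite picture. Its correlation with Fosb was 0.66 over all arrays, where it ranked 271 of 5622 genes. Without wild-type replicate 2 it was 0.92, and the Spearman correlation over the 6 was 0.94. That 0.92 was the highest among the immediate early factors and effectors, followed by Zfp36l1 at 0.67. How many of all named genes reach such a value over 5 arrays was not counted. On the remaining 5 arrays Fos and Fosb had the same order, lowest on mutant replicate 1, then wild-type replicates 3 and 1, then mutant replicates 2 and 3. Over the 16 factors the median correlation with Fosb was 0.59, beside 0.11 for all named genes, and 0.10 without wild-type replicate 2, beside -0.06.

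**Figure D4:**
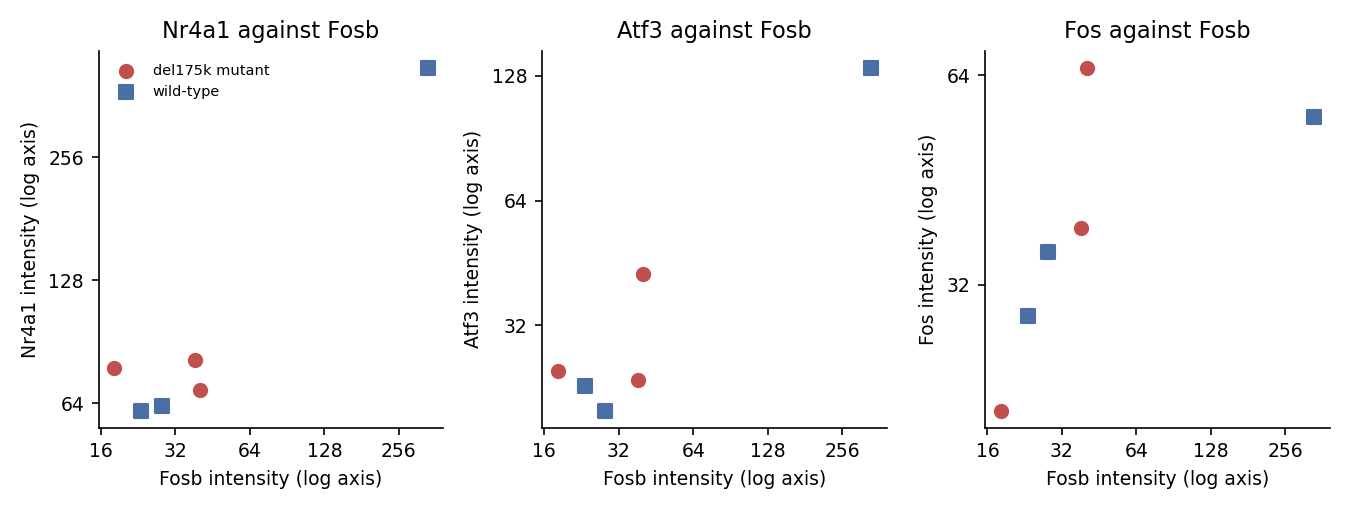
Intensity of Nr4a1, Atf3 and Fos (vertical log axes) against that of Fosb (horizontal log axis) on the 6 arrays, with circles for del175k mutants and squares for wild-type. For Nr4a1 and Atf3 wild-type replicate 2 lies alone at the upper right, at 423.4 and 133.8, while Fos spans 21.1 to 65.6 over all arrays.

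For Egr3 the most similar profiles were those of Spout1 (r = 0.99), Gstp1, a glutathione transferase (0.97), Cdh15, the M-cadherin of myoblasts (0.97), Cdca4 (0.96), Ptms (0.96) and Tpbgl (0.96). All 6 were highest on wild-type replicate 1 and lowest on mutant replicate 2, as Egr3 was. Their correlations lay between 0.96 and 0.99 without wild-type replicate 2. The median correlation of the 16 factors with Egr3 was -0.12, beside -0.30 for all named genes. Without wild-type replicate 2 it was -0.37, beside -0.35 for all named genes. For the 28 effectors and feedback genes the median over the 6 arrays was -0.49. The lowest among the 16 factors and 28 effectors was that of Nfkbia, at -0.95, singled out after the values were seen. Nfkbia had a higher mean in the mutants and was lowest on wild-type replicate 1, the array of lowest median, where Egr3 was highest.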

How the data were processed

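Per the labels, 6 samples of bone RNA, 3 from del175k mutants and 3 from wild-type littermates, were amplified, biotin-labelled and read on single-colour Affymetrix arrays. The deposited values are intensities on a linear scale. The authors' background correction, summarisation and scaling are not given in the sources used here, and no scanner files were used, so another background correction was not tried. Genes were named from the platform annotation, using the 6398 of 8997 probe sets with exactly 1 symbol, and 0 symbols needed updating through RefSeq (GRCm38.p6). The probe set of highest mean stood for a gene.

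Intensities were converted to log2 without further normalization. A model with 2 group means was fitted in R 4.3.3 with limma 3.58.1 (functions lmFit and eBayes), two-sided, with Benjamini-Hochberg adjustment over all 8997 probe sets and a threshold of 0.05, and was tested on simulated data. The number of arrays limits the precision. Python 3.11.15, pandas 2.3.3 and matplotlib 3.10.9 made tables and plots.

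The members, the gene lists and the tests were chosen with earlier results of these data known. Genes named were all probe sets of the members, all 16 measured immediate early factors, the 4 of smallest p among effectors, the 2 of smallest p in each other list, and the 6 most correlated with each member, leaving out predicted genes, olfactory receptors and small RNAs. The lists covered upstream factors, the MAP kinase cascade, spindle genes and markers of osteoblasts, muscle, red cells, myeloid cells, chondrocytes, osteoclasts, endothelium, tendon and epidermis. The alternatives tried were leaving out single arrays, leaving out the dimmest 25% of probe sets, quantile normalization or median centring, array weights, a variance trend with robust estimation, a replicate block, and averaging a gene's probe sets.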

Additional observations from a re-analysis of the deposited data

How the results depend on the processing

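Over the 6 fits that each lacked an array, the log2 difference of Fosb ranged from -1.68 to 0.24, being above 0 only without wild-type replicate 2, and that of Egr3 from -0.38 to -0.21. Under the other alternatives Fosb lay between -1.06 and -0.88 and Egr3 between -0.38 and -0.30. The median of the 16 factors ranged from -0.19 to 0.33 and that of the effectors from 0.07 to 0.47 over the arrays left out. The count of called probe sets was 0 to 15 over the arrays left out, the 15 coming without mutant replicate 3, and 4 with array weights. Of the probe sets at an unadjusted p under 0.05, 516 were higher and 153 lower in the mutants, or 77.1% higher, against 62.3% after quantile normalization (532 and 322), 65.3% with the replicate block (445 and 236), 43.6% when arrays were weighted (616 and 796) and 66.0% after median centring (570 and 294).

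Same-numbered samples were not shown to be paired. Their deviations from the group means correlated at -0.11, -0.03 and 0.32, beside -0.42 to 0.34 for samples of different numbers. Deviations from means of 3 arrays cannot settle whether samples were paired, and the replicate block was set by the number alone. With that block the differences of Fosb and Egr3 had SEs of 0.70 and 0.18, and 0 probe sets were called.

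Signs of single genes turned as follows, and the cause was not tested. Leaving out single arrays gave ranges of -1.10 to 0.29 for Nr4a1, -0.92 to 0.46 for Atf3, -0.43 to 0.32 for Csrnp1, -0.44 to 0.38 for Fos, -0.0088 to 0.84 for Jun, -0.15 to 0.82 for Klf6, -0.40 to 0.35 for Myc, -0.83 to 0.41 for Slc4a1, -0.12 to 0.51 for Pecam1 and -0.019 to 0.37 for Cdh5. With array weights Klf6 was at -0.018, Csrnp1 at 0.14, Fos at 0.0077, Myc at -0.12, Pecam1 at -0.10, Cdh5 at -0.049 and Krt14 at 0.13. Myc was at -0.034 after quantile normalization and -0.048 after median centring. Values that moved over 1.5 times with an array left out but did not turn included ranges of 0.063 to 0.56 for Fosl2, 0.098 to 0.57 for Cebpb, 0.18 to 0.68 for Braf, 0.16 to 0.62 for Hapln1, 0.37 to 0.98 for Alas2, -3.39 to -1.51 for Lor and -2.34 to -0.54 for Krt14. Apart from the values that turned, 537 recomputed values of named genes, those that moved over 1.5 times among them, kept their direction and stayed short of the threshold. The correlations with the members were recomputed under settings chosen after the data were seen.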
